A study of Mus musculus with 15 samples.

Results

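The 10 genes described here, Cst7, Itgax, Clec7a, Gpnmb, Lgals3, Spp1, Cd9, Axl, Igf1 and Csf1, are commonly used to mark disease-associated microglia (DAM). They were taken by name, as 10 of the 29659 gene rows that each library holds, and no measured value decided which genes belong. They were read in 15 bulk RNA-seq libraries of mouse thalamus from 4 genotypes. The 5EL group (n = 5) was 5xFAD/APOE4+/+/Lilrb4a+/+, and the 5ELKO group (n = 4) was 5xFAD/APOE4+/+/Lilrb4a-/-. The EL group (n = 3) carried APOE4+/+ with intact Lilrb4a and no 5xFAD transgene, and the ELKO group (n = 3) was APOE4+/+/Lilrb4a-/-. All 4 groups were thus labelled as carrying human APOE4, although 1 ELKO library held much mouse Apoe RNA (given below with the other checks), and the methods give one age of 4.5 months. The 5xFAD transgenes, which cause amyloid plaques, are driven by the neuronal Thy1 promoter, whereas the Lilrb4a deletion was carried in every cell. Tissue came from a hemisphere of PBS-perfused mice, and each library is bulk tissue in which microglia are a minority. In such samples, fewer microglia and less RNA per microglial cell cannot be told apart.

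DAM were defined as microglia that gather at amyloid plaques, lower their resting genes and switch on genes for lipid handling, lysosomes and phagocytosis. The full switch depends on the activating receptor Trem2 and its adaptor Tyrobp, and APOE, a lipid carrier, is itself part of the programme. Lilrb4a encodes an inhibitory receptor of myeloid cells and its human relative LILRB4 has been linked to APOE. The study compared amyloid-bearing mice with and without it. Among the genes here, Spp1, Igf1, Csf1 and Cst7 encode secreted or vesicle-borne products. Itgax, Clec7a, Axl, Cd9 and Gpnmb encode membrane proteins, and Lgals3 encodes a galactose-binding lectin.

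Promoter sequence is shown first for Cst7, Itgax, Gpnmb and Igf1. These are the 4 genes of the 10 whose promoter window held TGANTCA, a loose AP-1 pattern that takes any base in the middle. The first 3 and Igf1 also differed in opposite directions in mice with Lilrb4a. Each window runs from 250 bases before to 50 bases after the RefSeq start site on GRCm38.p6, 5′ to 3′ on the plus strand. Capitals mark matches to AGGAAG, the core of sites for the myeloid factor PU.1, and to TGANTCA.
Cst7, chr2:150570165-150570464: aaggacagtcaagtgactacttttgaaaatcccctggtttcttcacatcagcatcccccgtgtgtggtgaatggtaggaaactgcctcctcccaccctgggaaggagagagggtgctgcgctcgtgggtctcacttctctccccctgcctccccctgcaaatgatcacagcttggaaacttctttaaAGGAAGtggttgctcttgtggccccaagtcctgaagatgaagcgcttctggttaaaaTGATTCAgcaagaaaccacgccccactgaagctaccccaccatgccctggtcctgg
Itgax, chr7:128129300-128129599: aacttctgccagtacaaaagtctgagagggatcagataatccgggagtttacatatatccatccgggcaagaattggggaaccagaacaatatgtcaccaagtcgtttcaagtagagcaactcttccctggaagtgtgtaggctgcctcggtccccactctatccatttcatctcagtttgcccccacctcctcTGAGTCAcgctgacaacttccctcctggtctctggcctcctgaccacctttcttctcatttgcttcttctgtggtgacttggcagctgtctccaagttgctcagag
Gpnmb, chr6:49036268-49036567: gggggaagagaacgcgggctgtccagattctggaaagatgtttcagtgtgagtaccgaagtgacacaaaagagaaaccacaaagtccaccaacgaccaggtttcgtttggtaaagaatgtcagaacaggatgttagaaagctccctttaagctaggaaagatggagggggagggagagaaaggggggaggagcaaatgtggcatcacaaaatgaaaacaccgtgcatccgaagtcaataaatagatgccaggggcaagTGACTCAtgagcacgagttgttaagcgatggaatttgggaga
Igf1, chr10:87860861-87861160: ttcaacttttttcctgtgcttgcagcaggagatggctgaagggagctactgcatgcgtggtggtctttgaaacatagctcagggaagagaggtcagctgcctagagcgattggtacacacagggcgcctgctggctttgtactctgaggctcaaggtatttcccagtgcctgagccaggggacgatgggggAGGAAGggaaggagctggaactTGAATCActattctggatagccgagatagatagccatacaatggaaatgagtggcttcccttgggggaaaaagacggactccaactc

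In Cst7 the letters matching this loose pattern read TGATTCA and began 6 bases before the start site, at position -6. They read TGAGTCA at position -56 in Itgax, TGACTCA at position 9 in Gpnmb and TGAATCA at position -37 in Igf1. Over both strands, TGANTCA was present in 7.81% of the 32851 RefSeq promoters of this length. AGGAAG was found in the windows of Cst7, Igf1, Spp1, Cd9 and Axl, and in 35.4% of all promoters. The E-box CACGTG (7.15% of all promoters) and the M-box TCATGTG (3.77%) were in no window of the 10 genes, and the windows of Clec7a, Lgals3 and Csf1 held none of the 4 motifs. The whole windows used for Igf1 and Lgals3 lie inside the genes as GENCODE M21 draws them. So does the Spp1 window that begins at base 104435942. These matches describe letters in a window and were not tested against the expression values.

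The deleted gene was checked first. Lilrb4a (chr10:51490956-51496611, plus strand) was at 2.40 to 2.66 on the deposited log2 scale in the 5EL libraries, 2.34 to 2.42 in EL and 2.33 in each of the 7 libraries labelled as lacking it. Its level was low everywhere, below the value of 3.32 used as a filter, so the check rests on small differences. All 10 DAM genes were above that filter in every library, the lowest value being 4.60, and all 10 were tested. Several libraries stood apart in genes of other tissues. Ttr, a choroid plexus transcript, reached 13.71 in 5EL replicate 1 and 14.66 in ELKO replicate 2 against at most 10.31 elsewhere. Mouse Apoe reached 10.90 in ELKO replicate 1 against at most 6.37 elsewhere, which goes against the stated APOE4+/+ background of that library.

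**Figure D1:**
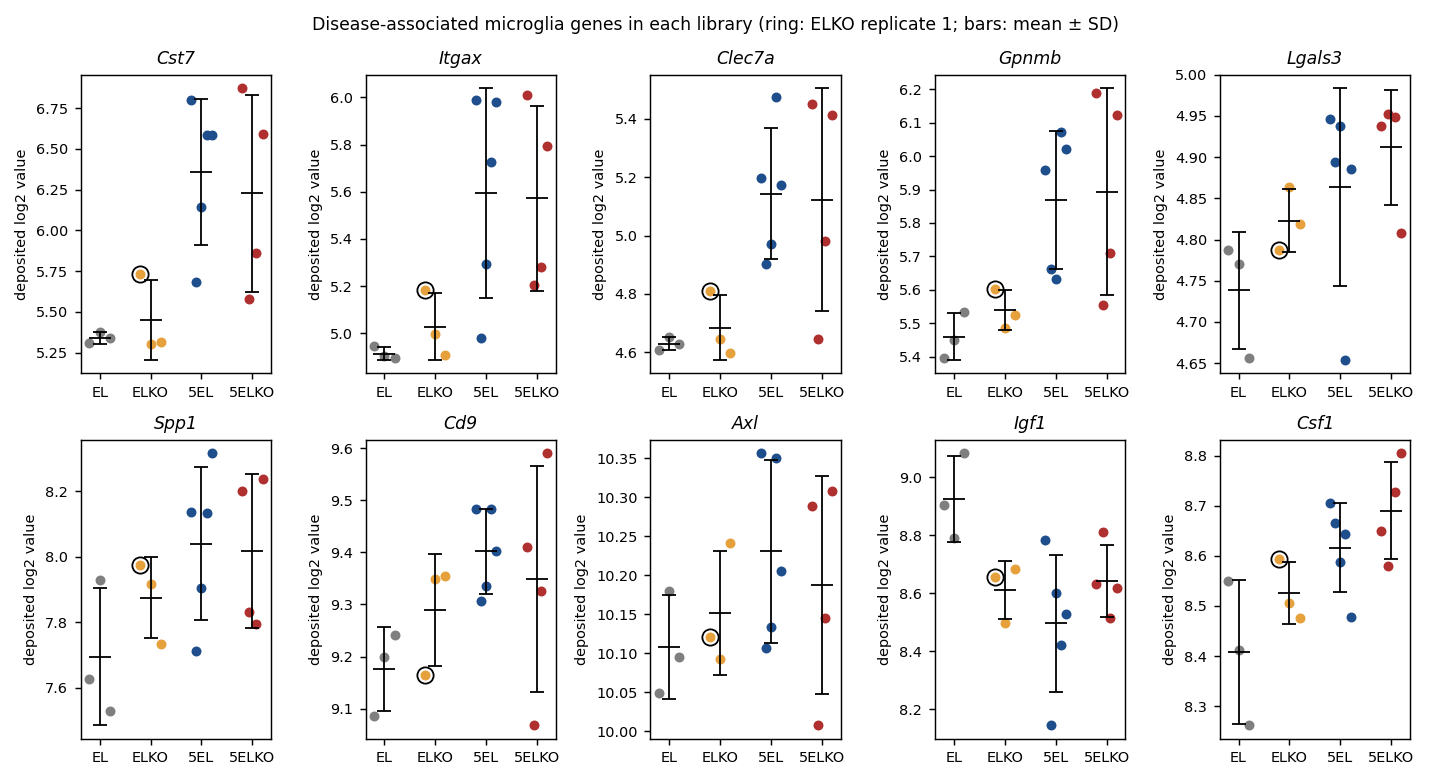
Deposited log2 value (y axis, a different range in each panel) of the 10 DAM genes in each library of the EL, ELKO, 5EL and 5ELKO groups (x axis); points are libraries, bars are mean ± SD, and the ring marks ELKO replicate 1. Cst7, Itgax, Clec7a and Gpnmb spread widely within both 5xFAD groups, and the ringed library is the highest ELKO library for each of them.

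Cst7 (chr2:150570415-150578944, plus strand) encodes cystatin F, an inhibitor of lysosomal cysteine proteases. Its log2 values in EL were 5.31, 5.38 and 5.34, and in 5EL they were 6.80, 5.68, 6.14, 6.59 and 6.59. Every 5EL library lay above every EL library, and the mean was 1.02 higher (SE 0.27), a 2.03-fold difference and the largest of the 10 genes. In ELKO the values were 5.73, 5.30 and 5.31, and in 5ELKO they were 6.87, 5.58, 5.86 and 6.59. Here the groups overlapped, because 5ELKO replicate 2 lay below ELKO replicate 1, and the mean was 0.78 higher (SE 0.28), or 1.71-fold. The order of group means was 5EL (6.36 ± 0.45, SD), 5ELKO (6.23 ± 0.61), ELKO (5.45 ± 0.24) and EL (5.34 ± 0.035), and neither the first pair nor the last pair of that order differed beyond its spread.

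Itgax (chr7:128129547-128150657, plus strand) encodes CD11c, the integrin alpha chain that marks plaque-associated microglia. Its values were 4.94, 4.90 and 4.89 in EL and 5.99, 4.98, 5.29, 5.73 and 5.98 in 5EL. In ELKO they were 5.18, 4.99 and 4.91, and in 5ELKO 6.01, 5.21, 5.28 and 5.79. The 5xFAD libraries lay above all their references at both Lilrb4a genotypes, although 5EL replicate 2 and 5ELKO replicate 2 did so by little. The mean differences were 0.68 (SE 0.22) with Lilrb4a and 0.54 (SE 0.23) without it.

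Clec7a (chr6:129461591-129472779, minus strand) encodes Dectin-1, a receptor for beta-glucan that signals through Syk. EL libraries held 4.61, 4.65 and 4.63, and 5EL libraries 5.20, 4.90, 4.97, 5.47 and 5.17. ELKO libraries held 4.81, 4.65 and 4.60, and 5ELKO libraries 5.45, 4.64, 4.98 and 5.41. The 5EL libraries were all above the EL libraries, by 0.52 on average (SE 0.16), whereas 5ELKO replicate 2 fell within the ELKO range and the mean difference there was 0.44 (SE 0.16).

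Gpnmb (chr6:49036546-49070929, plus strand) encodes a lysosomal and cell-surface glycoprotein of lipid-laden macrophages. Its values were 5.40, 5.45 and 5.53 in EL against 5.96, 5.66, 5.63, 6.07 and 6.02 in 5EL, again with no overlap. ELKO libraries stood at 5.60, 5.49 and 5.53, and 5ELKO libraries at 6.19, 5.55, 5.71 and 6.12, so that 5ELKO replicate 2 was below ELKO replicate 1. The mean differences were 0.41 (SE 0.13) and 0.35 (SE 0.14).

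The secreted phosphoprotein osteopontin, encoded by Spp1 (chr5:104435118-104441050, plus strand), had values of 7.63, 7.93 and 7.53 in EL and 8.14, 7.71, 7.90, 8.13 and 8.32 in 5EL. In ELKO they were 7.97, 7.92 and 7.74, and in 5ELKO 8.20, 7.83, 7.80 and 8.24. The groups overlapped in both comparisons, with mean differences of 0.35 (SE 0.14) and 0.14 (SE 0.15). The tetraspanin gene Cd9 (chr6:125460266-125494791, minus strand) ran from 9.09 to 9.24 in EL and from 9.31 to 9.48 in 5EL, without overlap and with a difference of 0.23 (SE 0.092). Its ELKO values were 9.17, 9.35 and 9.35, which lay within the 5ELKO range of 9.07 to 9.59, and the difference was 0.059 (SE 0.097). Cd9 is also expressed by oligodendrocytes and other glia. Axl (chr7:25757273-25788705, minus strand), a receptor tyrosine kinase that recognises Gas6 on apoptotic cells, showed the response nearest to 0 in 5EL, 0.12 (SE 0.077), and 0.036 (SE 0.081) in 5ELKO, with all 4 groups overlapping between 10.01 and 10.36.

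Csf1 (chr3:107741048-107760469, minus strand), the growth factor that keeps microglia alive through Csf1r, had values of 8.55, 8.41 and 8.26 in EL and 8.48 to 8.71 in 5EL. Its ELKO values of 8.59, 8.51 and 8.48 met the 5ELKO range of 8.58 to 8.80 only through ELKO replicate 1. The differences were 0.21 (SE 0.073) with Lilrb4a and 0.16 (SE 0.077) without it. Galectin-3, the product of Lgals3 (chr14:47367751-47386160, plus strand), binds sugar chains on damaged membranes. It ranged from 4.65 to 4.95 over the 5EL libraries and from 4.66 to 4.79 over EL, with differences of 0.13 (SE 0.063) and, in the mice without Lilrb4a, 0.089 (SE 0.066). The transform of the deposited values is not given, but low genes lie close together in them. If it shrinks low levels, folds of the lower genes, among them Lgals3, Clec7a, Itgax, Cst7 and Gpnmb, are likely understated.

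Igf1 (chr10:87858265-87937042, plus strand), the gene of insulin-like growth factor 1, went against the other 9. EL libraries were at 8.90, 8.79 and 9.08, and 5EL libraries at 8.78, 8.15, 8.60, 8.42 and 8.53. Every 5EL library was below every EL library, although 5EL replicate 1 (8.784) and EL replicate 2 (8.788) nearly met, and the mean difference was -0.43 (SE 0.11). ELKO libraries were at 8.65, 8.50 and 8.68, and 5ELKO libraries at 8.63, 8.81, 8.51 and 8.62. Between 5ELKO and ELKO the libraries overlapped, and the mean difference was 0.032 (SE 0.12). In brain, Igf1 is transcribed by microglia but also by some neurons, vascular cells and other cells, and it is a major product of liver. The mean level of 15 hepatocyte genes was 5.47, 4.80 and 4.65 in the EL libraries, 4.71 to 5.21 in 5EL, 4.68 to 5.26 in ELKO and 5.08 to 5.47 in 5ELKO. The list includes the choroid plexus transcript Ttr. The upper ends of 5.21 and 5.26 belong to 5EL replicate 1 and ELKO replicate 2, the libraries high in Ttr. The median difference of the 15 genes had the sign of the Igf1 difference in the 5 comparisons. These share 4 group means and are not 5 separate results. The sizes differed, with 0.33 for the list and 0.032 for Igf1 in 5ELKO minus ELKO. Hepatocyte level and Igf1 did not go together in every library. EL replicate 3 had the highest Igf1 value of all libraries (9.08) and the lowest hepatocyte mean (4.65). The median difference of the 15 genes was -0.19 in 5EL minus EL, 0.33 in 5ELKO minus ELKO and -0.23 in ELKO minus EL. In the interaction their median was 0.51, and 13 of 15 were higher at nominal p under 0.05, against 237 of 15804 genes. In 5ELKO minus 5EL, 14 of 15 were higher at that p, with a median of 0.35, against 241 of 15743 genes. Of the 15, 2 passed after adjustment as higher, against 0.0191% of all genes. The mean level of 10 neuron and thalamus genes was 12.79 to 12.86 in EL, 12.57 to 12.77 in 5EL, 12.66 to 12.83 in ELKO and 12.61 to 12.81 in 5ELKO. Of these 10, 5 had a lower level in 5EL than in EL at nominal p under 0.05, against 3.88% of all genes. The part of the hepatocyte, neuron and thalamus genes in the Igf1 difference was not tested.

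**Figure D2:**
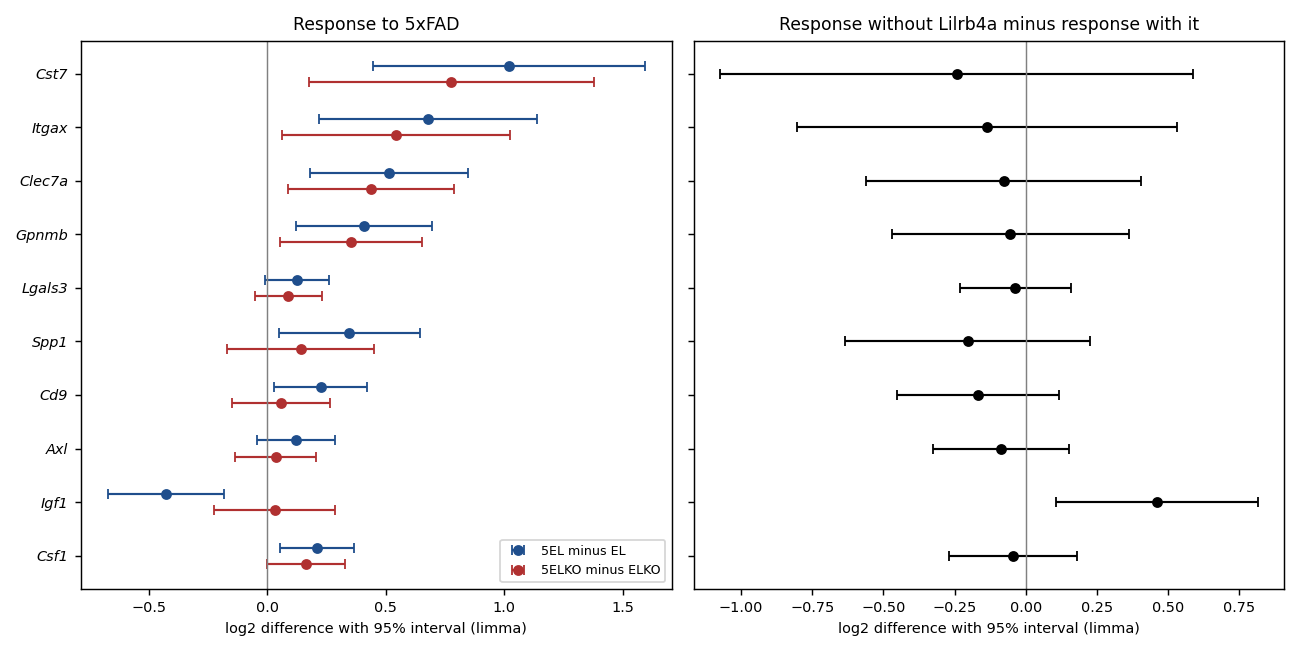
Log2 differences (x axis) with 95% intervals from limma for each DAM gene (y axis). Left, 5EL minus EL in blue and 5ELKO minus ELKO in red; right, the second difference minus the first. Cst7 has the largest response at both genotypes, 1.02 and 0.78, and Igf1 is the gene whose right-hand interval lies off 0, at 0.11 to 0.81.

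Group means fell in the order 5EL, 5ELKO, ELKO, EL for 6 genes (Cst7, Itgax, Clec7a, Spp1, Cd9 and Axl), in the order 5ELKO, 5EL, ELKO, EL for 3 (Gpnmb, Lgals3 and Csf1) and in the order EL, 5ELKO, ELKO, 5EL for Igf1. Across the 10 genes, 9 differences between 5EL and EL were positive, with a median of 0.29 against 0.0006 over all 15804 genes tested. At a nominal p under 0.05 in limma, 7 of the 10 were higher (Cst7, Itgax, Clec7a, Gpnmb, Spp1, Cd9 and Csf1), against 3.82% of all genes, and Igf1 was lower, against 3.88% of all genes. The smallest nominal p in limma was 0.00176, for Cst7. After Benjamini-Hochberg adjustment over all genes, 0 of the 10 passed, with adjusted p of 0.630 to 0.644 in limma, and 0% of all genes passed in either direction. By overlap alone, 5 of the 10 had every 5EL library above every EL library, which 1.68% of all genes showed. Igf1 had every library below, which 1.59% of all genes showed. Leaving out one library at a time left 0 of the 10 past the adjusted threshold and 6 to 8 past the nominal one. With the replicate number as a block, Spp1 and Cd9 were no longer at nominal p under 0.05 and Lgals3 was. Without EL replicate 1, 31 genes passed among all those tested, and the smallest adjusted p among the 10 in limma was then 0.0897.

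In mice without Lilrb4a all 10 differences between 5ELKO and ELKO were positive, with a median of 0.15 against -0.0005 over all genes. In limma, 5 of the 10 (Cst7, Itgax, Clec7a, Gpnmb and Csf1) were higher at nominal p under 0.05, against 1.48% of all genes. None was lower, against 0.892%. The adjusted p was 0.999 in limma for each of the 10, so 0 passed, as did 0% of all genes in either direction. Itgax was the 1 gene of the 10 with every 5ELKO library above every ELKO library, a pattern seen for 1.78% of all genes, and 0 of the 10 had every library below, against 1.61%. With the replicate number as a block, Lgals3 took the place of Csf1 among the 5. The count at nominal p rested on single libraries. Without 5ELKO replicate 1 it was 0, without 5ELKO replicate 4 or ELKO replicate 3 it was 1 (Cst7), and without ELKO replicate 2, the library high in Ttr, it was 2 (Cst7 and Clec7a). Without ELKO replicate 1, the library high in mouse Apoe, it stayed 5 and the Cst7 difference was 0.92 in place of 0.78.

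The size of the 5xFAD response with and without Lilrb4a was compared by the interaction, which uses the same libraries as both responses. All 10 responses were nearer to 0 without Lilrb4a than with it, but the interval of the difference included 0 for 9 of the 10. Over all genes, nominal p under 0.05 in limma was also less common without Lilrb4a. The shares there were 1.48% higher and 0.892% lower, against 3.82% and 3.88% with it. The share of all genes with a response nearer to 0 was not counted. For Cst7 the difference of responses was -0.24, with a 95% interval of -1.07 to 0.59. It was -0.14 (-0.80 to 0.53) for Itgax, -0.077 (-0.56 to 0.41) for Clec7a and -0.054 (-0.47 to 0.36) for Gpnmb. These intervals are as wide as the responses themselves, so neither a like nor an unlike response is shown. Single libraries moved them, from -0.46 without 5ELKO replicate 1 to -0.027 without 5ELKO replicate 2 for Cst7, and from -0.29 without 5EL replicate 2 to -0.014 without 5ELKO replicate 2 for Itgax. Without 5ELKO replicate 2 the difference was above 0 for Clec7a (0.082) and Gpnmb (0.059). The tightest intervals were those of Lgals3, -0.23 to 0.16, and Csf1, -0.27 to 0.18. Igf1 had a positive difference of 0.46 (SE 0.17, 95% interval 0.11 to 0.81), the 1 gene of the 10 at nominal p under 0.05, against 2.73% of all genes. Its adjusted p was 0.9996 in limma, and 0% of all genes passed in either direction. Leaving out any one of the 15 libraries kept the Igf1 value between 0.37 and 0.53. The Igf1 mean was 8.92 in EL against 8.50 in 5EL, 8.64 in 5ELKO and 8.61 in ELKO. The interaction, 5EL minus EL and ELKO minus EL all use the same 3 EL libraries.

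**Figure D3:**
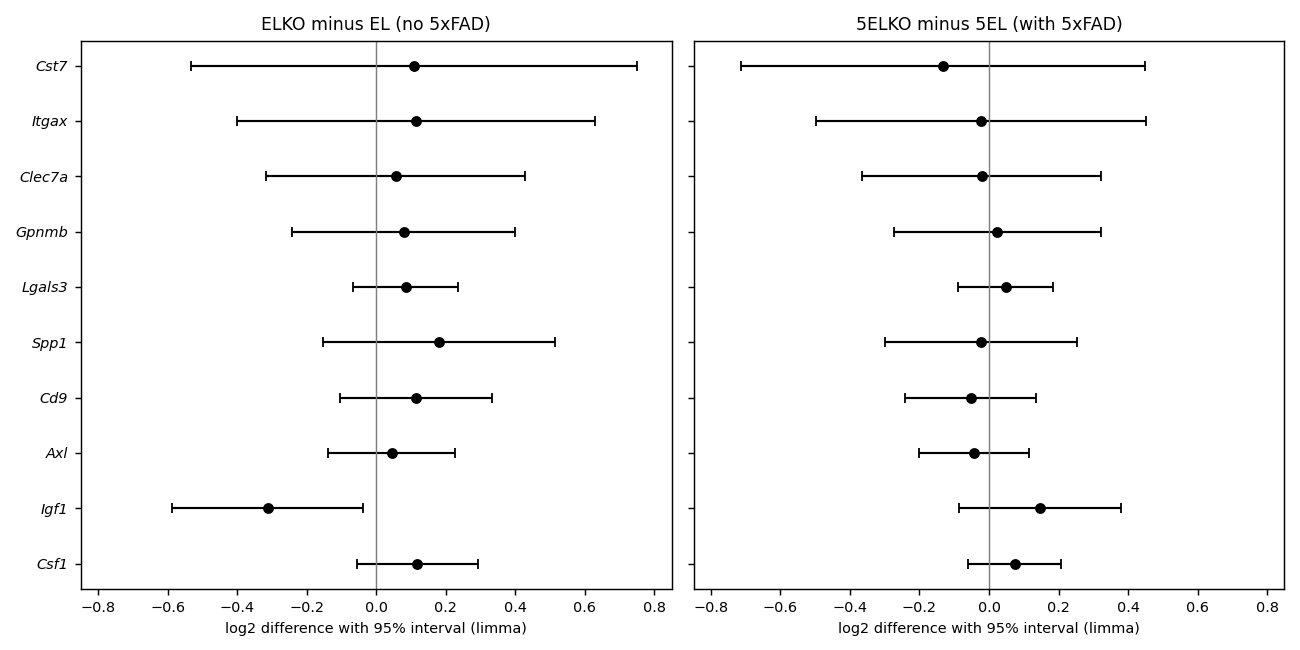
Log2 differences (x axis) with 95% intervals from limma for the Lilrb4a deletion without 5xFAD (left, ELKO minus EL) and with it (right, 5ELKO minus 5EL) in each DAM gene (y axis). Igf1 is at -0.31 on the left, where its interval ends at -0.039, and every interval on the right includes 0.

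Deletion of Lilrb4a was also set against its intact counterpart directly. Without 5xFAD, 9 of the 10 differences between ELKO and EL were positive and at most 0.18, the value of Spp1. Igf1 was -0.31 (SE 0.13), the only one of the 10 at nominal p under 0.05, against 2.35% of all genes, and its adjusted p was 0.998. Of all genes, 0% passed the adjusted threshold in either direction. The Cst7 difference of 0.11 rested on ELKO replicate 1, without which it was -0.031. The Clec7a difference went from 0.056 to -0.0069 in the same way.

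With 5xFAD, the comparison the study itself drew, the 10 differences between 5ELKO and 5EL ran from -0.13 (Cst7) to 0.15 (Igf1), and 0 of the 10 were at nominal p under 0.05, against 2.49% of all genes. The study counted genes at nominal p under 0.05 that also differed by more than 1.2-fold, which held for 0.254% of genes in this fit and 0 of the 10. After adjustment 0.0191% of genes were higher and 0% lower, and the adjusted p of each of the 10 was 0.999 in limma. The 95% intervals reached from -0.72 to 0.45 for Cst7, from -0.50 to 0.45 for Itgax, from -0.37 to 0.32 for Clec7a and from -0.27 to 0.32 for Gpnmb. Differences of about that size in either direction could not be seen with these libraries. Without 5EL replicate 1, the other library high in Ttr, Igf1 was 0.22 higher in 5ELKO and was the 1 gene of the 10 at nominal p under 0.05.

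**Figure D4:**
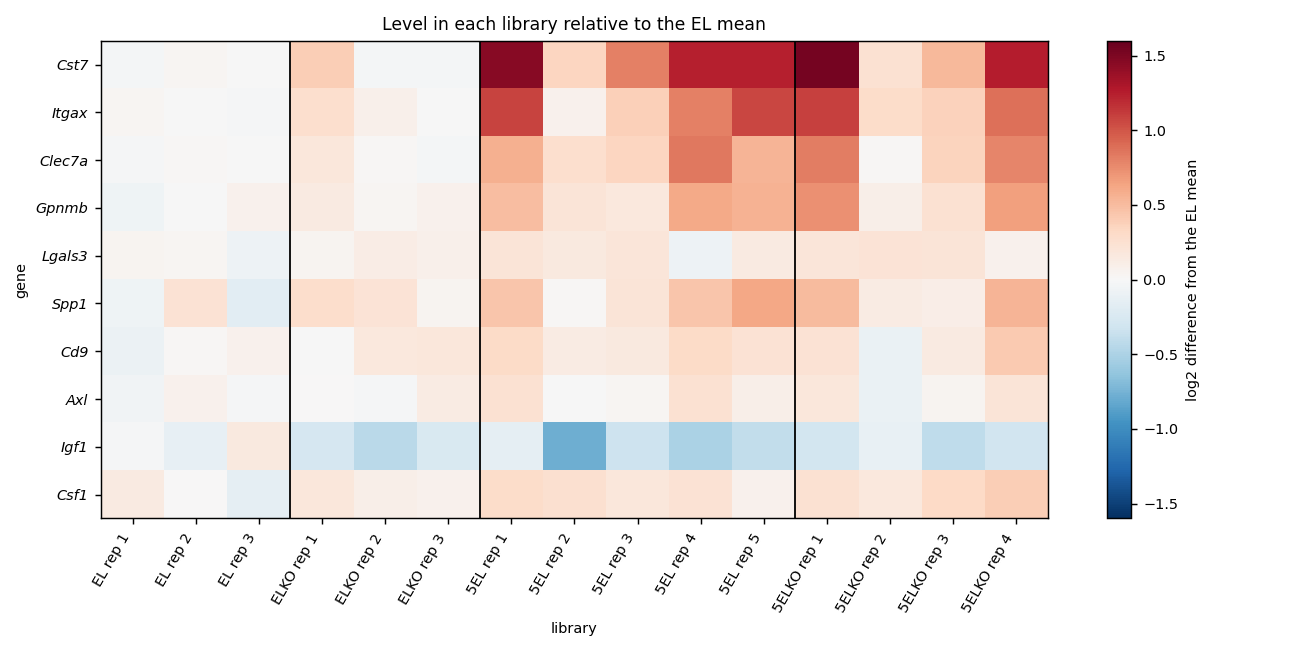
Level of each DAM gene (rows) in each library (columns, ordered EL, ELKO, 5EL, 5ELKO) as the log2 difference from the EL mean (colour scale, red higher and blue lower). Replicates 2 and 3 of both 5xFAD groups are paler than the other libraries of their group for Cst7, Itgax, Clec7a and Gpnmb. Igf1 is blue in every library outside EL.

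The 5xFAD libraries of one genotype differed widely among themselves in these genes. Cst7 covered a range of 1.12 in 5EL and 1.29 in 5ELKO but 0.069 in EL, and the range of Itgax was 1.01 in 5EL, 0.80 in 5ELKO and 0.051 in EL. The genes varied together from library to library. Cst7, Itgax, Clec7a, Gpnmb, Spp1, Cd9 and Axl, a set of 7 picked after their values were seen, each had their 2 lowest 5EL libraries in replicates 2 and 3 and their 2 lowest 5ELKO libraries in replicates 2 and 3. Lgals3 did not follow, since its lowest values were in 5EL replicate 4 and 5ELKO replicate 4, libraries in which Cst7 was at 6.59. Igf1 was lowest in 5EL replicate 2, at 8.15, but highest in 5ELKO replicate 2, at 8.81. Over the 15 libraries the Pearson correlation of a gene with the mean standardized level of the other 9 was 0.96 for Cst7, 0.95 for Itgax, 0.93 for Gpnmb, 0.91 for Clec7a, 0.83 for Spp1, 0.76 for Axl, 0.74 for Cd9, 0.57 for Csf1, 0.17 for Lgals3 and -0.39 for Igf1. These values describe libraries that share genotype groups and one normalization, and carry no test. The study lists RNA integrity for the 5xFAD libraries, and its part in this spread was not tested.

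General microglial genes varied along with them. The mean level of 12 pan-microglia genes was 8.03, 7.72, 7.86, 8.07 and 7.98 in 5EL replicates 1 to 5 and 8.11, 7.63, 7.73 and 8.13 in 5ELKO replicates 1 to 4. The lowest values are again those of replicates 2 and 3, and 5EL replicate 2 and 5ELKO replicates 2 and 3 lay within the ranges of EL (7.61 to 7.78) and ELKO (7.61 to 7.75). All 12 pan-microglia genes were positive in 5EL minus EL, with a median of 0.31. At nominal p under 0.05, 5 of 12 were higher, against 3.82% of all genes. When each library was recentred on the mean of these 12 genes, an alternative chosen after the data were seen, the median of all genes shifted to -0.25. On that scale Cst7 was 0.77 higher (adjusted p = 0.0248 in limma) and Igf1 0.68 lower, at -0.68 (adjusted p = 0.0248), and these were the 2 of the 10 past the adjusted threshold, among 3 genes called higher and 31 called lower. Itgax was at 0.43 and Clec7a at 0.26 on that scale, and Lgals3, Cd9, Axl and Csf1 were below 0, although 9 of the 10 were above the shifted median. For 5ELKO minus ELKO none of the 10 passed after the same recentring, and Cst7 was at 0.56 (adjusted p = 0.323 in limma).

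The 10 genes whose level followed the mean of the DAM genes most closely over the 15 libraries are named here, with no test. Laptm5, a lysosomal membrane protein of blood-lineage cells, had the highest Pearson correlation, 0.97, followed by Irf8, a microglial transcription factor, at 0.97, Fcgr2b, the inhibitory Fc receptor, at 0.96, and Mpeg1, a pore-forming protein of macrophages, at 0.96. The astrocyte gene Serpina3n came next at 0.95, then Csf1r at 0.95, the cathepsin genes Ctsd and Ctsz at 0.94, Man2b1, a lysosomal mannosidase, at 0.94 and Ccl6, a chemokine, at 0.93.

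**Figure D5:**
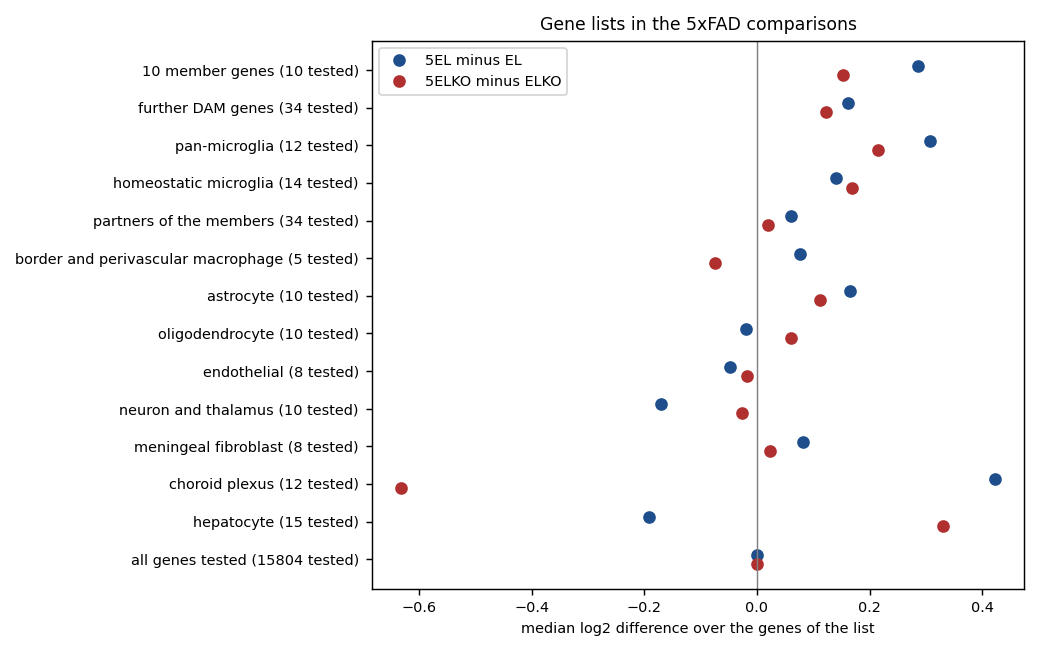
Median log2 difference (x axis) over the tested genes of each list (y axis, with the number tested) in 5EL minus EL (blue) and 5ELKO minus ELKO (red). The 10 DAM genes are at 0.29 and 0.15 and all genes tested are at about 0, while the choroid plexus and hepatocyte lists take opposite signs in the 2 comparisons.

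A further 40 DAM genes, taken from published signatures by hand, gave 34 that could be tested. Of these 17 were higher and 1 lower in 5EL than in EL at nominal p under 0.05, with a median of 0.16, against 3.82% and 3.88% of all genes. In 5ELKO minus ELKO 8 were higher and 0 lower, with a median of 0.12, against 1.48% and 0.892%. The same shares of all genes apply to the lists that follow. The lysosomal genes Ctsz and Cd68 differed by 0.44 (SE 0.12) and 0.50 (SE 0.16) with Lilrb4a and by 0.33 (SE 0.13) and 0.45 (SE 0.16) without it. Mamdc2 was 0.26 higher (SE 0.073) with Lilrb4a and 0.011 (SE 0.076) without. None of the 34 passed after adjustment in either comparison.

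Homeostatic genes, which DAM are known to lower, were also followed. Of 14 homeostatic microglia genes 13 had a positive difference in 5EL minus EL, with a median of 0.14, and 5 were higher and 0 lower at nominal p under 0.05. Csf1r, the receptor of Csf1, was 0.27 higher (SE 0.090). In 5ELKO minus ELKO the median was 0.17, with 3 higher and 0 lower. No gene of this list passed after adjustment.

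Known partners of the 10 genes, their receptors, ligands and signalling proteins, were 34 in number and all testable. At nominal p under 0.05, 5 were higher and 1 lower in 5EL than in EL, with a median of 0.061, and 2 were higher and 1 lower in 5ELKO than in ELKO, with a median of 0.020. The lower one in 5EL was Cd44, a receptor of osteopontin, at -0.40 (SE 0.13) with Lilrb4a and at -0.0041 (SE 0.14) without it. Its interaction was 0.40 (adjusted p = 0.9996 in limma) beside 0.46 for Igf1. Itgb5, an integrin chain that also binds osteopontin, was 0.19 higher at both genotypes, and Lgals3bp, a ligand of galectin-3, was 0.45 higher (SE 0.18) with Lilrb4a and 0.20 (SE 0.18) without.

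Markers of other cells were followed beside these results. Of 8 monocyte and neutrophil genes 0 passed the filter. Of 8 border and perivascular macrophage genes 5 passed, with a mean level of 4.96 to 5.28 in 5EL, 4.96 to 5.07 in EL, 4.81 to 5.04 in 5ELKO and 4.91 to 5.14 in ELKO, and 0 of 5 were at nominal p under 0.05 in either 5xFAD comparison. In 5ELKO minus 5EL 3 of the 5 were lower at nominal p under 0.05, against 151 of 15743 genes. These were Mrc1 (-0.26), Cd163 (-0.16) and F13a1 (-0.22), each with an adjusted p of 0.999 in limma. Pf4, Ms4a7 and Clec4n were the 3 below the filter. Of 10 astrocyte genes, 3 were higher at nominal p under 0.05 in each comparison, with Gfap at 1.35 with Lilrb4a and 0.81 without. The 12 choroid plexus genes had medians of 0.42 in 5EL minus EL and -0.63 in 5ELKO minus ELKO. The 10 oligodendrocyte genes had medians of -0.020 and 0.061. The part of these cells in the DAM gene values was not tested.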

How the data were processed

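Bulk RNA-seq of polyA RNA from thalamus was measured in 15 libraries, which were grouped by the genotype in their labels. Per the labels and methods, the authors used Trimmomatic 0.39 for trimming, HISAT2 2.2.1 for alignment (GRCm38), featureCounts 2.0.3 for read pairs per gene name without regard to strand, and DESeq2 1.38.3 for differential expression. The authors deposited log2 values for 29659 genes per library, from -2.27 to 18.98, and the transform is not given in the sources used here. Low genes lie close together, so a transform that shrinks their differences is assumed, and their folds are likely understated. Levels were not compared between genes. The files hold no counts, so no counting interval is given. The study lists read totals and RNA integrity for the 5xFAD libraries, which were not used here. Of the 105 library pairs, 0 held identical values. A further 5ELKO library was not analysed here.

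The values were fitted with limma 3.58.1 (lmFit, eBayes with a trend) in R 4.3.3, with Benjamini-Hochberg adjustment over all genes tested and a threshold of 0.05. Genes at 3.32 or more, log2 of 10, in at least 3 of 15 libraries (15804 genes) or 4 of 9 libraries (15743 genes, 5ELKO minus 5EL) were tested. The script was tested on simulated data. The labels do not say whether replicates were separate mice. The study lists each 5xFAD library under its own sample number and describes random selection from 5EL and 5ELKO mice. It gives no such list for EL and ELKO. The p-values thus measure the spread between these libraries. The genes and lists were chosen with earlier results of these data known, and so were the tests. Named were the 10 genes, Lilrb4a, up to 4 genes of each other list with the smallest p in 5EL minus EL, and the 10 genes most correlated with the mean of the 10. EL and ELKO libraries of one replicate number departed from their group means together (correlations of 0.45, 0.33 and 0.74). That the numbers pair these libraries was read from the data alone. The main fits used no pairing, and the replicate number served as a block in alternative fits only. Mismatched replicates 1 and 2 also correlated, EL 1 with ELKO 2 at 0.38 and EL 2 with ELKO 1 at 0.30, so that replicate 3 stood apart from both and ELKO 2 correlated best with EL 1. The other groups did not pair (-0.32 to 0.23). Promoters are RefSeq, GRCm38.p6, and coordinates GENCODE M21. One DAM gene of the further list, Lilrb4b, was matched to no row. Figures used matplotlib 3.10.9 in Python 3.11.15.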

Additional observations from a re-analysis of the deposited data

Results flagged for a closer look

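The Igf1 difference between 5xFAD and its reference was 0.46 more on the log2 scale in mice without Lilrb4a than with it. It was the 1 gene of the 10 at nominal p under 0.05 in the test of that difference, which it did not pass after adjustment (adjusted p = 0.9996 in limma).

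For Lgals3, the lowest 5EL library (replicate 4) was separated from the next by a share of 0.793 of the group's range, and the lowest 5ELKO library (also replicate 4) by a share of 0.905. These were the 2 groups with a library far from the others among 20 checked, and chance gives about 1 in 20.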

How the results depend on the processing

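None of the 10 genes passed the adjusted threshold in any of the 5 comparisons under another filter, variance prior, median recentring, choice of libraries or the replicate block. The exception was recentring on the pan-microglia genes, added after the data were seen, where 2 passed in 5EL minus EL and 3 were at nominal p under 0.05. The replicate block gave 7 genes at nominal p in 5EL minus EL, 5 in 5ELKO minus ELKO and 1 in ELKO minus EL, where a fit of the EL and ELKO libraries alone, also added, gave 1 too. It changed no adjusted call among the 10, but which genes were at nominal p did change, Lgals3 replacing Spp1 and Cd9 in 5EL minus EL and Csf1 in 5ELKO minus ELKO. In 5ELKO minus 5EL the block lowered the SE of Cst7 from 0.27 to 0.075, although the numbers do not pair those groups over all genes. In 5ELKO minus ELKO the count at nominal p was 1 (Cst7) without the libraries high in choroid plexus genes, 1 under pan-microglia recentring, and 0 to 5 leaving out single libraries. In ELKO minus EL it was 0 under both, and 0 to 2 leaving out single libraries, and in 5ELKO minus 5EL it was 1 (Igf1) without the choroid plexus-rich library and 0 to 1. No direction turned under another filter, variance prior or median recentring. Under pan-microglia recentring, directions turned for Lgals3 (-0.13), Cd9 (-0.029), Axl (-0.13) and Csf1 (-0.046) in 5EL minus EL, Lgals3 (-0.13), Spp1 (-0.078), Cd9 (-0.16), Axl (-0.18), Igf1 (-0.19) and Csf1 (-0.055) in 5ELKO minus ELKO, and Itgax (0.00722), Clec7a (0.00769) and Spp1 (0.00555) in 5ELKO minus 5EL. That scale lowers every gene of a library by its microglial level. The replicate block turned Axl (-0.00304) in 5ELKO minus ELKO and Itgax (0.075) and Spp1 (0.045) in 5ELKO minus 5EL. Leaving out the choroid plexus-rich libraries turned Igf1 (-0.025) in 5ELKO minus ELKO, Lgals3 (0.00452) in the interaction, and Itgax (0.077) and Spp1 (0.000388) in 5ELKO minus 5EL. Leaving out single libraries turned directions, with these ranges over libraries, in 5ELKO minus ELKO (Axl -0.00421 to 0.096, Cd9 -0.021 to 0.15, Igf1 -0.025 to 0.075), in the interaction (Clec7a -0.19 to 0.082, Csf1 -0.11 to 0.028, Gpnmb -0.15 to 0.059, Lgals3 -0.089 to 0.00452), in ELKO minus EL (Axl -0.00130 to 0.080, Clec7a -0.00692 to 0.099, Cst7 -0.031 to 0.18) and in 5ELKO minus 5EL (Axl -0.083 to 0.017, Cd9 -0.13 to 0.040, Clec7a -0.13 to 0.14, Cst7 -0.35 to 0.083, Gpnmb -0.074 to 0.14, Itgax -0.18 to 0.10, Lgals3 -0.00433 to 0.083, Spp1 -0.11 to 0.050). For the last 3 settings the cause was not tested. Over all genes, calls in 5EL minus EL went from 0 to 1 with no filter, to 34 under pan-microglia recentring and to 0 to 31 leaving out single libraries. In 5ELKO minus 5EL they went from 3 to 1 with no filter, 1 with the replicate block, 0 in a fit of all 15 libraries and 0 to 4 leaving out single libraries. Depth cannot be judged from log2 values.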
